A study of Mus musculus with 9 samples.

Results

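Collagen is folded in the endoplasmic reticulum (ER) before it is secreted, and 8 genes tied to that step were followed here in fibroblasts of metastatic lungs: Ppib, Serpinh1, P4hb, Pdia3, Hspa5, Calr and Hsp90b1, which encode ER folding enzymes and chaperones, and Snx22, a sorting nexin gene whose exons lie over the 3′ end of Ppib on the other strand. They were taken by symbol from tables of 55302 gene symbols. They were named with earlier results on the same libraries known, so that their differences between the treatments are given as a description. The libraries came from fibroblasts sorted as CD45-, EpCAM- and PDGFRa+ cells from mouse lungs at an early metastatic stage, from mice given doxorubicin (DOX, 5 libraries) or PBS, which the labels also call saline (4 libraries). Doxorubicin is an anthracycline that damages DNA. According to the study, all mice had carried a breast tumour that was removed before treatment, lungs were taken a day after the last dose, and the sort also left out CD31+ cells. Strain and age are not given in the labels.

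The α-chains of collagen are rich in proline and fold slowly, because peptide bonds before proline must turn to the trans form. Ppib encodes cyclophilin B, a prolyl isomerase that speeds this turn and works in a complex with P3h1 and Crtap. Serpinh1 encodes HSP47, a chaperone that binds the collagen triple helix. P4hb is protein disulfide isomerase and also the β subunit of collagen prolyl 4-hydroxylase. Hspa5 (BiP), Hsp90b1 (GRP94), Calr (calreticulin) and Pdia3 (ERp57) serve secreted proteins in general, and their genes are classical targets of the unfolded protein response. Snx22 is one of the sorting nexins, which bind membrane phosphoinositides, and has no known part in collagen folding.

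Ppib (ENSMUSG00000032383.7) spans chr9:66060222-66066623 on the plus strand of mm10, and Snx22 (ENSMUSG00000039452.6) spans chr9:66065176-66069719 on the minus strand, so that the genes run towards each other and overlap at their ends. The last 2 of the 5 exons of the main Ppib transcript lie inside the last exon of Snx22, which is 2044 bases long. The shared stretch holds 514 exonic bases, which are 57.6% of the 892-base Ppib transcript and 20.2% of the 2543-base Snx22 transcript. It holds 305 coding bases of Ppib and 0 coding bases of Snx22, since it falls in the untranslated end of Snx22. MARS-seq, the method used, sequences stranded tags from the 3′ ends of polyadenylated transcripts, so a tag from the end of Ppib falls on bases that the annotation gives to both genes. The strand setting of the count is not given in the sources used here, and reads of Ppib and Snx22 could not be told apart in the deposited values. The end of the Ppib coding sequence, at chr9:66066388-66066417 in mm10, shows what both genes share. It is printed 5′ to 3′ first as Ppib reads it, with the stop codon in capitals, and then as the Snx22 transcript reads the same bases, with the complement of that codon in capitals.
Ppib strand: gagaaacccttcgccattgccaaggagTAG
Snx22 strand: CTActccttggcaatggcgaagggtttctc

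**Figure D1:**
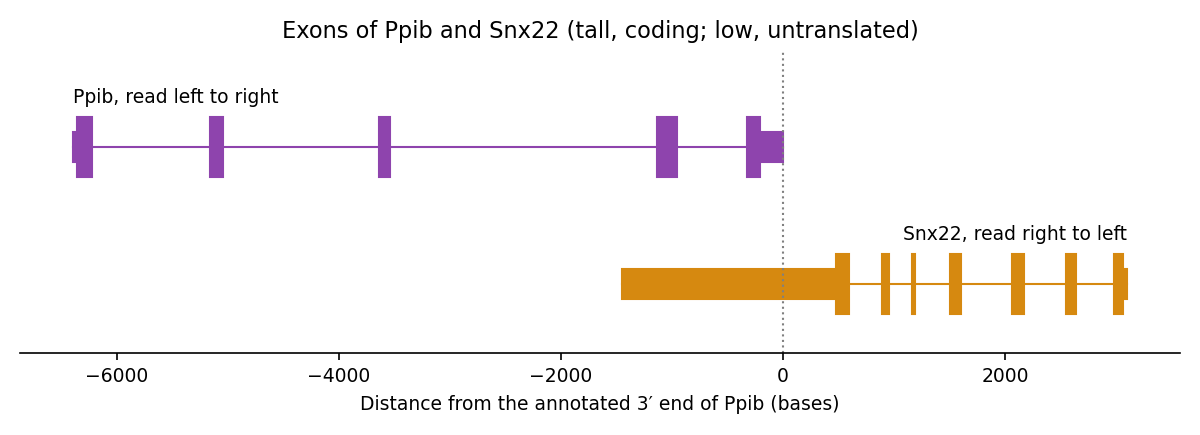
Exons of the main transcripts of Ppib (above, read left to right) and Snx22 (below, read right to left) by distance in bases from the annotated 3′ end of Ppib, with coding parts tall and untranslated parts low. The last 2 of the 5 Ppib exons sit over the long untranslated end of Snx22, and no coding part of Snx22 is covered.

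The promoters of the chaperones were searched for the ER stress response element, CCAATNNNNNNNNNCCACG, to which the factors NF-Y and ATF6 bind during the unfolded protein response. Windows ran from 250 bases before to 50 bases after each RefSeq gene start (GRCm38), and both strands were searched. Hspa5, Calr and Hsp90b1 had a match, 3 of the 8 genes, and 0.137% of 27025 symbols with a window had one. These 3 genes were already known as targets of that response, so their matches are given as a description and not as a result. Among 78 other folding and export genes with a window, 6 had a match, namely Canx, Creld2, Derl3, Dnajc3, Pdia6 and Syvn1. The matches are printed 5′ to 3′ on the strand that carries them, with both fixed ends of the motif in capitals. They lie on the gene's own strand at chr2:34772025-34772043 for Hspa5 and chr10:86705638-86705656 for the first of Hsp90b1, and on the other strand at chr10:86705533-86705551 for the second of Hsp90b1 and chr8:84847075-84847093 for Calr.
Hspa5: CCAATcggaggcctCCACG
Hsp90b1, first: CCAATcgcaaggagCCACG
Hsp90b1, second: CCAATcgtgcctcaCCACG
Calr: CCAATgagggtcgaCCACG

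No match of these letters was found in the windows of Ppib, Snx22, Serpinh1, P4hb and Pdia3, which says only that the exact motif is not in that stretch. The Hspa5 window, the best studied promoter of this kind, is given whole for chr2:34771840-34772139 on the plus strand, with the fixed ends of its match in capitals.
Hspa5 promoter: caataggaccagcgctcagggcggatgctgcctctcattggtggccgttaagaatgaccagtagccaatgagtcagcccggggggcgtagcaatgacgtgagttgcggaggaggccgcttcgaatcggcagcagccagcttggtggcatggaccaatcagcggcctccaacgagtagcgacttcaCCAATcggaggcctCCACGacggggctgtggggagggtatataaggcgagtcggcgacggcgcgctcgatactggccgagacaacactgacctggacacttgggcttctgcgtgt

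Values are normalized counts, meaning reads scaled by the size factor of their library. Reads per library numbered 432322 to 1285816 in DOX mice and 497637 to 734114 in PBS mice. Of 17428 symbols above 0 in any library, 2604 reached 10 normalized counts in at least 4 libraries and were tested with limma. PBS replicate 4 stood apart, with a summed level of 12 granulocyte and other immune markers (11 above 0, Ms4a1 at 0) of 1381 normalized counts against 279 to 368 in the other 8 libraries. Its 10 epithelial markers, all above 0, summed to 480 against 15.8 to 178, its 10 endothelial markers (Kdr and Emcn at 0) to 220 against 71.9 to 153, and its 12 fibroblast markers to 1721 against 2544 to 3605. Single genes carried much of these sums, with S100a8 at 756, Sftpc at 210 and Col1a1 at 1027 normalized counts in PBS replicate 4. Ptprc, another of the immune markers, was at 2.43 there and at 7.17 in DOX replicate 5. DOX replicate 2 was the shallowest library and had 35.3% of its reads on a ribosomal RNA gene, where the other DOX libraries had 7.91% to 16.8% and the PBS libraries 5.74% to 9.34%. Pdgfra, the gene of the sorting marker, had 0.93, 7.74, 1.02, 8.22 and 4.61 normalized counts in DOX libraries and 11.99, 3.17, 1.26 and 0.81 in PBS libraries, so it was near the limit of detection throughout.

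The Snx22 row was among the highest of the whole table. It held 7260, 5617, 6570, 10569 and 7329 normalized counts in DOX replicates 1 to 5 and 9423, 9242, 9999 and 6181 in PBS replicates 1 to 4. The lowest PBS value belonged to PBS replicate 4 and the groups overlapped. By its mean over the 9 libraries, 8021, Snx22 ranked 10 among all genes, and it took 0.671% to 1.59% of all reads in DOX libraries and 1.04% to 1.59% in PBS libraries.

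Ppib had far fewer reads. Its values were 113, 36.8, 105, 106 and 85.6 normalized counts in DOX libraries and 159, 197, 189 and 113 in PBS libraries. The groups met at their edges, with DOX replicate 1 just above PBS replicate 4, and the lowest DOX value, from 19 reads, came from DOX replicate 2. Ppib averaged 89.4 ± 31.1 normalized counts in DOX fibroblasts (SD, n = 5) and 165 ± 38.4 in PBS fibroblasts (SD, n = 4), and it ranked 539 of all genes by its mean. Over the 9 libraries the mean level was 8021 normalized counts for Snx22 and 123 for Ppib, not scaled by length since the tags come from 3′ ends.

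Of the reads on the Snx22 and Ppib rows together, Snx22 held 98.46%, 99.35%, 98.42%, 99.01% and 98.85% in DOX libraries and 98.34%, 97.91%, 98.14% and 98.21% in PBS libraries. The exact 95% binomial interval, which covers counting error only, ran from 98.09% to 98.71% in DOX replicate 3 and from 98.07% to 98.59% in PBS replicate 1, the closest libraries of the groups. The ratio of Snx22 to Ppib reads was 64.1, 153, 62.4, 99.6 and 85.7 in DOX libraries and 59.3, 46.8, 52.8 and 54.9 in PBS libraries. Every DOX ratio lay above every PBS ratio, by a small gap that was narrower than the counting intervals of these libraries. Ratios of 291 overlapping opposite-strand pairs with both genes tested did not overlap between the groups in 10 pairs, or 3.44%. The separation is given as a description, as the pair was chosen with the libraries known, and DOX replicate 2, which had the highest ratio, rests on the fewest Ppib reads.

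**Figure D2:**
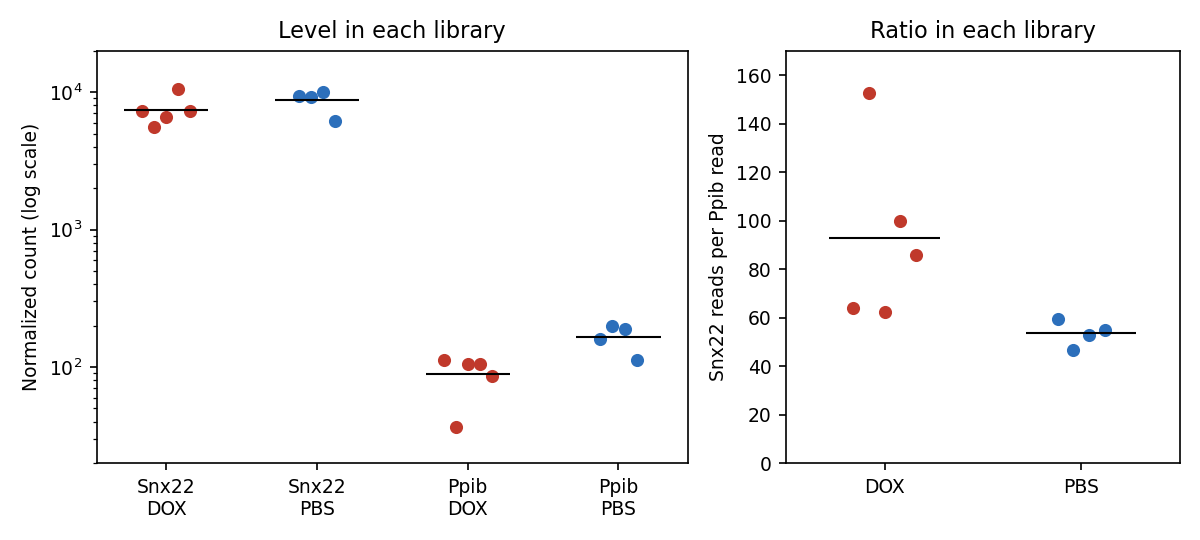
Left, normalized counts of Snx22 and Ppib in each library on a log axis, DOX libraries in red and PBS libraries in blue, with bars at the group means. Right, Snx22 reads per Ppib read in each library, where the 5 DOX libraries sit between 62.4 and 153 and the 4 PBS libraries between 46.8 and 59.3.

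The same arrangement was common among the highest rows. An exon over the last 500 bases of a coding gene on the other strand was found in 6.70% of 21894 annotated protein-coding genes, in 10.5% of 13145 above 0, in 38.6% of 2155 tested and in 65 of the 78 coding genes among the 100 highest of all genes, or 83.3%. Counting each pair once, 381 pairs summed to at least 100 normalized counts on average, and Snx22 with Ppib ranked 6 among them. In each of the 8 highest pairs 1 row held nearly all of the signal, with a share of 98.5% for Snx22 and up to 99.97% for Tlcd1. The pairs named here were picked from these 8 after their values were seen. Polr2b, an RNA polymerase subunit, averaged 41572 normalized counts over the 9 libraries where Igfbp7, a secreted protein abundant in stromal cells, averaged 93.1. Ccdc152 averaged 16872 where Selenop, the selenium carrier, averaged 28.8, and Syn3, a synaptic gene, averaged 12281 where Timp3, a matrix protein of fibroblasts, averaged 36.0. Tlcd1 averaged 7958 where the ribosomal protein gene Rpl23a averaged 2.27. In all 381 pairs the median share of the higher row was 95.7%, and 202 pairs (53.0%) had a share of 95% or more. Which strand the reads of these rows came from was not tested.

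**Figure D3:**
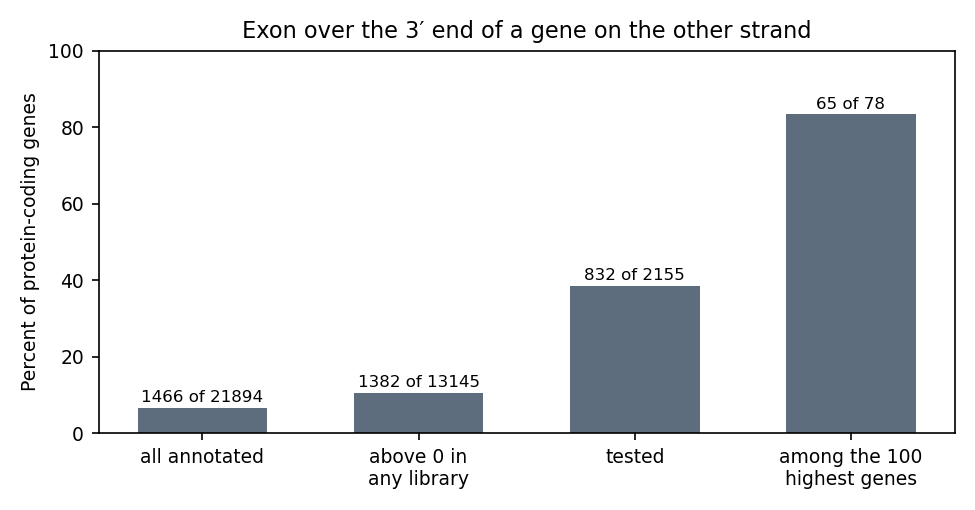
Percent of protein-coding genes with an exon over the last 500 bases of a coding gene on the other strand, for all annotated genes, those above 0, those tested and those among the 100 highest rows. The bars stand at 6.70%, 10.5%, 38.6% and 83.3%.

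Other sorting nexins were set beside Snx22. Of 29 listed, 27 were above 0 and 3 were tested, and all 3 had an exon over the 3′ end of a gene on the other strand. Snx21 averaged 158 ± 46.2 normalized counts in DOX fibroblasts (SD, n = 5) and 180 ± 88.3 in PBS fibroblasts (SD, n = 4), Snx17 averaged 91.4 in DOX and 103 in PBS, and Snx32 averaged 96.7 in DOX and 77.3 in PBS. The mean of Snx22 was above that of each of these 3, and the median of the listed means was 0.91. None of the 3 passed the limma test.

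Serpinh1, the collagen-specific chaperone, had 60.3, 15.5, 35.8, 60.5 and 33.3 normalized counts in DOX libraries and 81.9, 89.7, 49.2 and 55.9 in PBS libraries. The highest values stood in PBS replicates 1 and 2, and DOX replicate 2 was lowest, from 8 reads. It averaged 41.1 ± 19.3 in DOX fibroblasts (SD, n = 5) and 69.2 ± 19.7 in PBS fibroblasts (SD, n = 4). P4hb had 53.8, 23.2, 46.0, 20.9 and 31.2 normalized counts in DOX libraries and 20.98, 38.0, 48.0 and 38.9 in PBS libraries, so that the groups lay over each other.

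Calr, the lectin chaperone of the ER lumen, had 108, 15.5, 118, 111 and 56.9 normalized counts in DOX libraries and 47.9, 60.2, 112 and 73.7 in PBS libraries. Of the DOX libraries 3 stood near the highest PBS library and DOX replicate 2 stood far below the rest. Its mean was higher in DOX fibroblasts, at 81.8 ± 44.3 (SD, n = 5) against 73.5 ± 27.9 in PBS fibroblasts (SD, n = 4), while its fitted difference on the log2 scale was slightly negative.

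Hspa5, the HSP70 chaperone that senses unfolded protein, had 8.35, 5.81, 16.3, 3.73 and 9.22 normalized counts in DOX libraries and 13.99, 22.2, 36.6 and 8.91 in PBS libraries. DOX replicate 3 lay above PBS replicates 1 and 4, and the rest of the DOX libraries lay below 3 of the 4 PBS libraries. These values rest on 3 to 18 reads per DOX library and 11 to 29 per PBS library. Hsp90b1, the ER member of the HSP90 family, had 16.7, 11.6, 7.15, 10.5 and 2.56 normalized counts in DOX libraries and 5.99, 9.50, 11.4 and 0.81 in PBS libraries, the last from 1 read.

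Pdia3, the disulfide isomerase that works with calreticulin, had few reads in its row. Its values were 1.86, 9.68, 3.06, 0 and 2.56 normalized counts in DOX libraries and 2.00, 6.33, 11.4 and 0 in PBS libraries, and it reached 10 in 1 library and was not tested. A count of 0 allows a level of up to 2.24 normalized counts in DOX replicate 4 and 2.43 in PBS replicate 4, taking 3 reads as the limit. Calr, Serpinh1 and P4hb were at 10 or more in all 9 libraries, and Hspa5 and Hsp90b1 in 4 each. Those were PBS replicates 1 to 3 and DOX replicate 3 for Hspa5. For Hsp90b1 they were DOX replicates 1, 2 and 4 and PBS replicate 3. Each of these genes thus entered the test mainly through the group where it was higher. Over all 9 libraries the mean levels were 78.1 normalized counts for Calr, 53.6 for Serpinh1, 35.7 for P4hb, 13.9 for Hspa5, 8.46 for Hsp90b1 and 4.09 for Pdia3. The strand setting of the count is not given, and whether the low rows mean few transcripts was not tested.

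Of these 6 genes, Pdia3 and Hsp90b1 share exonic bases with a gene on the other strand, away from their 3′ ends. Catsper2, over Pdia3, was at 0 in every library but PBS replicate 4, where it had 30.8 normalized counts. The pseudogene 1810014B01Rik, over Hsp90b1, averaged 30.1 in DOX and 27.3 in PBS fibroblasts.

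**Figure D4:**
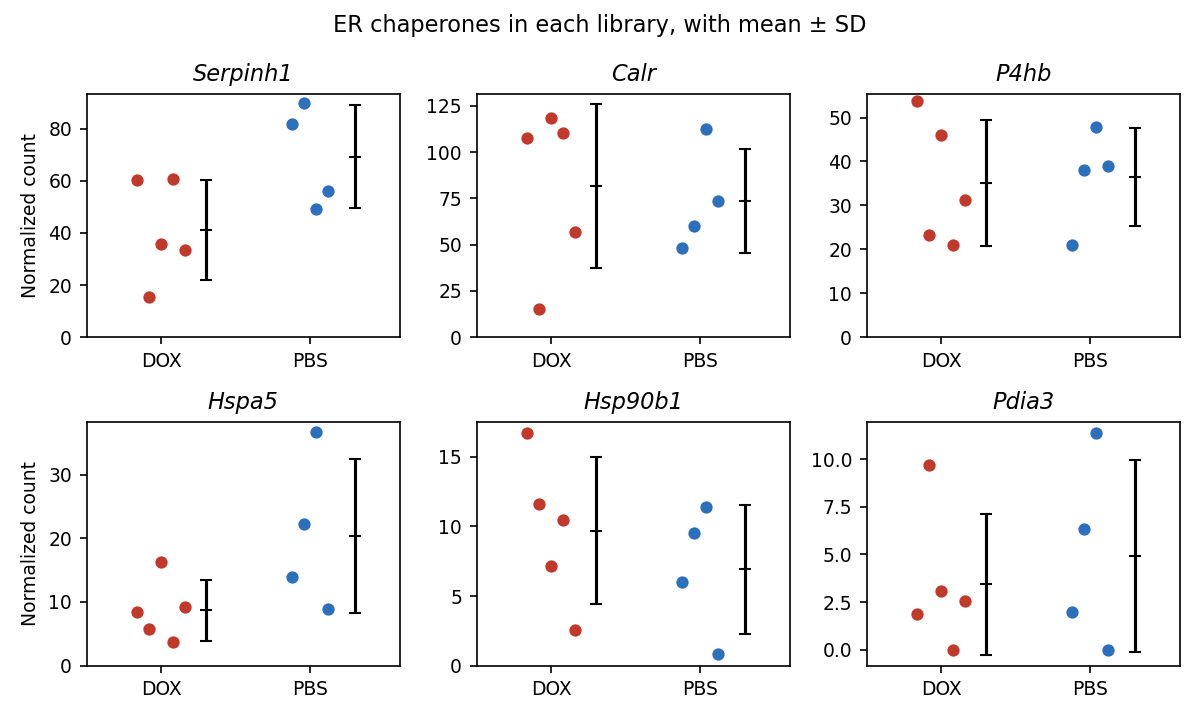
Normalized counts of 6 ER chaperone genes in each DOX library (red) and PBS library (blue), with the mean and SD of each group beside the points and a separate axis for each gene. The groups overlap in every panel, and for Serpinh1 and Hspa5 the DOX means, 41.1 and 8.69, stand below the PBS means, 69.2 and 20.4.

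The members were then compared between DOX and PBS fibroblasts. In the limma fit over all 2604 genes, with p-values adjusted by the Benjamini-Hochberg method, 0 of the 7 members tested passed at 0.05, as did 0% of all genes. The fitted means of 6 of the 7 were lower in DOX fibroblasts, where 50.6% of all genes were lower, and 1 of the 7, Ppib, had an unadjusted p under 0.05, where 6.22% of all genes did and 3.19% did with a lower mean in DOX fibroblasts. edgeR, DESeq2 and limma-voom on the recovered reads also called 0 genes. No member had groups that did not overlap, which 2.65% of all genes had. The median log2 fold change of the 7 was -0.23, which is the value of Snx22 itself, against -0.01 for all genes. Ppib and Snx22 are counted separately here, though their reads could not be told apart. In bulk libraries of sorted cells, fewer cells of a type and less RNA per cell cannot be told apart.

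The log2 fold change of Ppib, DOX over PBS on log2(normalized count + 1), was -0.94 (SE 0.35, adjusted p = 0.739). That of Hspa5 was -1.10 (SE 0.65, adjusted p = 0.784) and that of Serpinh1 was -0.84 (SE 0.42, adjusted p = 0.761). Snx22 differed by less, with -0.23 (SE 0.21, adjusted p = 0.875). P4hb and Calr had -0.09 (SE 0.42) and -0.08 (SE 0.52), both with an adjusted p of 0.985, and Hsp90b1 had 0.57 (SE 0.86, adjusted p = 0.948). Without PBS replicate 4 and DOX replicate 2 together, the values were -0.82 for Ppib, -0.63 for Serpinh1, -1.32 for Hspa5 and -0.29 for Snx22, still lower in DOX fibroblasts, while Calr was at 0.46 and P4hb at 0.080, and no adjusted p passed. The part of the immune and epithelial markers of PBS replicate 4 in these values was not tested beyond leaving that library out.

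Other collagen-modifying enzymes and their partners had low counts. Of 13 hydroxylases, their partners and glycosyltransferases, 12 were above 0 and 0 were tested. Plod3, a lysyl hydroxylase, was highest, with 22.3, 5.81, 3.06, 5.23 and 2.05 normalized counts in DOX libraries and 3.00, 25.3, 41.7 and 5.67 in PBS libraries. The partners of cyclophilin B were lower, with P3h1 at 3.45 normalized counts on average in DOX and 5.46 in PBS fibroblasts, and Crtap at 1.64 in DOX and 0.26 in PBS. Among 10 other ER prolyl isomerases and cyclophilins, all above 0, Fkbp10, a collagen chaperone of the FK506-binding family, was the 1 gene tested, at 9.08 ± 6.80 normalized counts in DOX fibroblasts (SD, n = 5) and 9.44 ± 3.68 in PBS fibroblasts (SD, n = 4). Fkbp2, a smaller member of that family, averaged 2.52 in DOX and 7.33 in PBS.

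Of 13 other disulfide isomerases and oxidases, 4 were tested and 0 passed, with the fitted log2 mean lower in DOX fibroblasts for 1 and higher for 3. Txndc5, an isomerase with thioredoxin domains, had 52.9, 50.3, 202, 114 and 142 normalized counts in DOX libraries and 47.9, 77.1, 21.5 and 418 in PBS libraries. Its highest value stood in PBS replicate 4, and its plain mean, 112 in DOX against 141 in PBS, ran against its fitted log2 difference of 0.35. Pdia6 averaged 9.62 ± 1.56 in DOX fibroblasts (SD, n = 5) and 5.29 ± 4.29 in PBS fibroblasts (SD, n = 4), and Erp29 averaged 39.7 in DOX and 42.1 in PBS. Each of these 3 shares exonic bases with a gene on the other strand, namely Bmp6 for Txndc5, Atp6v1c2 for Pdia6 and Naa25 for Erp29. Among 12 lectin chaperones and glucosidases, 3 were tested and 0 passed. Canx, the membrane partner of calreticulin, averaged 79.2 ± 26.7 in DOX fibroblasts (SD, n = 5) and 57.8 ± 30.2 in PBS fibroblasts (SD, n = 4), with overlapping groups. Man1b1, a mannosidase of the secretory pathway, averaged 7.49 in DOX and 11.2 in PBS, and Os9, an ER lectin of the degradation pathway, averaged 8.54 in DOX and 6.02 in PBS.

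Of 14 HSP70 cofactors and ER stress genes, all above 0, 5 were tested and 0 passed. Dnajb9, an ER-resident cofactor of Hspa5 that the unfolded protein response induces, had 15.8, 13.5, 15.3, 6.72 and 6.15 normalized counts in DOX libraries and 35.0, 29.6, 29.0 and 18.6 in PBS libraries. It was the single gene of the 24 tested in the folding and export lists whose groups did not overlap, each DOX library lying below each PBS library, as in 1.38% of all genes, with a log2 fold change of -1.28 (SE 0.52, limma adjusted p = 0.761). Hyou1, another large ER chaperone, averaged 42.9 ± 21.04 in DOX fibroblasts (SD, n = 5) and 39.6 ± 11.05 in PBS fibroblasts (SD, n = 4). Sdf4, a calcium-binding protein of the secretory pathway, averaged 8.83 in DOX and 15.2 in PBS. Sec61a1, the channel through which collagen chains enter the ER, averaged 34.6 in DOX and 28.5 in PBS, while the annotated antisense gene over its end, Gm44170, averaged 2834 in DOX and 3162 in PBS. The groups of Gm44170 did not overlap, by a narrow gap, with 3008 as its highest DOX and 3013 as its lowest PBS value. Each DOX library lay below each PBS library in 1.38% of all genes. The log2 fold change of Gm44170 was -0.16 (SE 0.16, limma adjusted p = 0.894).

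Of 17 regulators of the unfolded protein response, 15 were above 0, 5 were tested and 0 passed. Ddit3 (CHOP), the stress-induced transcription factor, had 159, 122, 145, 275 and 196 normalized counts in DOX libraries and 130, 115, 150 and 108 in PBS libraries, for a log2 fold change of 0.46 (SE 0.28, limma adjusted p = 0.804). The groups overlapped in the lower part of their range, and Mars, on the other strand over its end, averaged 412 in DOX fibroblasts and 373 in PBS fibroblasts. Atf4 averaged 82.6 ± 45.1 in DOX fibroblasts (SD, n = 5) and 104 ± 35.4 in PBS fibroblasts (SD, n = 4). Syvn1, an ER ubiquitin ligase, averaged 20.0 in DOX and 34.5 in PBS, and its neighbour on the other strand, Mrpl49, averaged 295 in DOX and 513 in PBS. Each DOX library of Mrpl49 lay below each PBS library, as in 1.38% of all genes. Its log2 fold change was -0.77 (SE 0.24, limma adjusted p = 0.647).

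Of 19 genes of COPII export and procollagen secretion, all above 0, 6 were tested and 0 passed. Kdelr2, the receptor that returns KDEL-tagged chaperones such as Hspa5, Calr and P4hb to the ER, had 1114, 867, 923, 1060 and 1593 normalized counts in DOX libraries and 1432, 1545, 1751 and 594 in PBS libraries. Of the listed genes other than Snx22 and the collagens it was the highest, and PBS replicate 4 held its lowest value. Mia3 (TANGO1), which loads procollagen into carriers, had 43.6, 98.7, 43.9, 36.6 and 3.07 normalized counts in DOX libraries and 20.0, 0, 36.6 and 34.0 in PBS libraries, a spread as wide within the groups as between them. Kdelr3 averaged 51.5 in DOX and 61.6 in PBS, the COPII coat gene Sec24c 16.1 in DOX and 12.2 in PBS, and Tfg, a gene of ER exit sites, 9.56 in DOX and 14.1 in PBS. Over the folding and export lists together, 92 of 98 genes were above 0, 24 were tested, 12 had a lower and 12 a higher fitted mean in DOX fibroblasts, and 0 passed the test. Their median log2 fold change was -0.03, against -0.01 for all genes tested, and 1 of the 24 had an unadjusted p under 0.05.

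**Figure D5:**
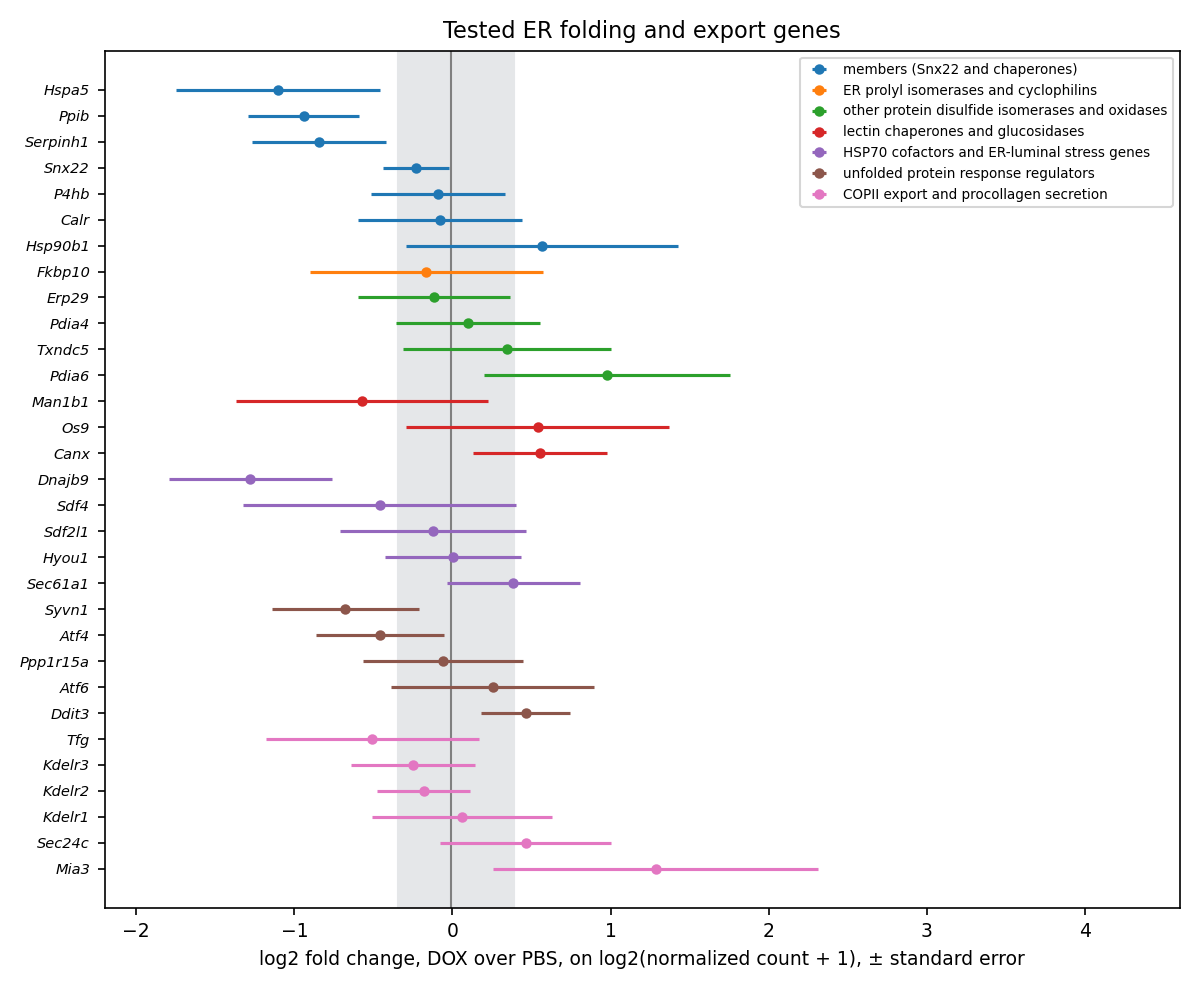
Log2 fold change of each tested member and each tested gene of the folding and export lists (sorting nexins and collagens are not drawn), DOX over PBS, with its standard error, grouped by list and coloured by list, beside the middle range of all 2604 genes (grey band from the lower quartile, -0.34, to the upper quartile, 0.39, with a line at the median). Dnajb9 at -1.28 and Hspa5 at -1.10 lie lowest and Mia3 at 1.28 highest among the genes drawn, and 0 of them passed the test.

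The chains that these enzymes fold were set beside them. Of 12 listed collagen genes 7 were tested, with the fitted mean lower in DOX fibroblasts for 6 and higher for 1, and 0 passed. Col1a1 averaged 1400 ± 239 normalized counts in DOX fibroblasts (SD, n = 5) and 1795 ± 550 in PBS fibroblasts (SD, n = 4), Col1a2 averaged 67.7 in DOX and 80.8 in PBS, and Col3a1 averaged 43.7 in DOX and 55.3 in PBS. The type VI chains Col6a1 and Col6a2, named after their values were seen, had the lowest p of the list. Col6a1 averaged 8.31 ± 5.88 in DOX fibroblasts (SD, n = 5) and 18.97 ± 10.08 in PBS fibroblasts (SD, n = 4), with a log2 fold change of -1.12 (SE 0.74, limma adjusted p = 0.820). Col6a2 averaged 68.1 ± 31.4 in DOX fibroblasts (SD, n = 5) and 91.0 ± 15.5 in PBS fibroblasts (SD, n = 4), with a log2 fold change of -0.62 (SE 0.45, limma adjusted p = 0.848), and its groups overlapped, as did those of Col6a1. The Snx22 row was higher than that of any of these chains in every library.

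The genes most like each member were found by Pearson's r of log2(normalized count + 1) over the 9 libraries, as a description. Ppib was most like Gm28043 (r = 0.93) and Lztr1 (r = 0.91), and Serpinh1 was also most like Lztr1 (r = 0.95). Lztr1 averaged 16.4 ± 13.3 normalized counts in DOX fibroblasts (SD, n = 5) and 37.0 ± 19.8 in PBS fibroblasts (SD, n = 4). Snx22 was most like Gm12473 and Fkbp10, both with r = 0.94. Both were low, with Gm12473 at 8.61 normalized counts in DOX and 15.3 in PBS fibroblasts, and Fkbp10 at 9.08 and 9.44. Hspa5 was most like Wdr54 and Nfkbia (both r = 0.91), Calr like Mfap2 (r = 0.93) and Jmjd8 (r = 0.92), P4hb like Slc16a6 (r = 0.92) and Pds5a (r = 0.90), and Hsp90b1 like Srsf12 (r = 0.96) and C3 (r = 0.94). All of these values rest on the same 9 libraries, which differ in depth and of which PBS replicate 4 stood apart in its markers. The named genes are the highest of all 2604 tested, and how high r runs for unrelated genes was not tested.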

How the data were processed

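Libraries were made by MARS-seq from 9 samples (5 DOX, 4 PBS), each labelled a separate biological replicate. Per the submitters' processing notes reads were mapped with STAR and counted with HTSeq on mm10, with no version or strand setting stated. The authors deposited a normalized signal, which is the read count of a gene divided by a library size factor. In every library 100% of values were whole multiples of 1 step (tolerance 1e-06), so reads were recovered. Repeated symbols (119) were summed. Read totals were 432322 to 1285816, and intervals cover counting error only, since molecular tags are not stated to be collapsed.

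Members and gene lists were chosen with earlier results of these data known. Named genes were the members, their opposite-strand neighbours, the 3 of lowest p and 2 of highest mean in each folding or export list, the 2 most alike genes of each member and 3 collagens. Differences were fitted with limma 3.58.1 (R 4.3.3; mean-variance trend, pseudocount 1, genes at 10 or more in 4 or more libraries, Benjamini-Hochberg at 0.05), tested on simulated data. Alternatives were pseudocounts, filters, TMM, edgeR 4.0.16, DESeq2 1.42.0, limma-voom, the replicate block and libraries left out. Positions and overlaps come from GENCODE M21, promoters from RefSeq.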

Additional observations from a re-analysis of the deposited data

How the results depend on the processing

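No gene passed at 0.05 under limma, where 162 had an unadjusted p under 0.05, nor under edgeR (149 unadjusted), DESeq2 (463) or limma-voom (160), nor with any library left out. Without a filter 3 of 17428 genes passed, none of them a member. Ppib (-1.11 to -0.65), Serpinh1 (-1.02 to -0.54) and Snx22 (-0.39 to -0.14, log2 scale) were lower in DOX fibroblasts in each of 20 fits. Hspa5 was lower in each of the 15 fits that tested it (-1.42 to -0.84). It reached 10 only in PBS replicates 1 to 3 and DOX replicate 3. Without any 1 of these libraries, and with the stricter filter, it was not tested, so no fitted direction is given there. Calr turned to 0.16 with edgeR and with DESeq2, 0.081 with limma-voom, 0.15 without PBS replicate 3, 0.43 without DOX replicate 2 and 0.46 without DOX replicate 2 and PBS replicate 4 together, with a range of -0.28 to 0.43 as each library was left out. P4hb turned to 0.058 without PBS replicate 3, 0.030 without DOX replicate 2, 0.066 without DOX replicate 4 and 0.080 without that pair of libraries, with a range of -0.33 to 0.066 as each was left out. Hsp90b1 was tested in 12 of the 20 fits and has no fitted direction in the rest. It turned to -0.039 without PBS replicate 4 and reached 0.92 without DOX replicate 5. The cause of these turns was not tested. The share of Snx22 in the summed reads was 98.42% to 98.60% as each library was left out. Deviations of same-numbered libraries had r = 0.07, 0.04, 0.02 and 0.06, where other pairs ran from -0.08 to 0.04. For DOX replicates 1, 2 and 4 the same-numbered PBS library was the closest, and for DOX replicate 3 it was PBS replicate 4. No r was above 0.07, and the labels do not state a pairing, so numbers are used as names of samples. With the replicate number as a block, 0 genes passed (152 unadjusted), and Ppib stood at -0.95. Hspa5, Hsp90b1 and Pdia3 rest on the fewest reads of the members, at 0 to 29 per library, and the cause was not tested.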
